A study of Mus musculus with 3 samples.

Results

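The stretch described here lies 1 to 2 Mb from the beta-globin (Hbb) viewpoint on mouse chromosome 7, on the side of lower coordinates, which is the side away from the locus control region (LCR). It comprises the listed DpnII restriction fragments whose midpoint lies from 108976215 to 109976214 in the mm9 build. The range was set by position, with earlier results of these data known. It holds 2065 of the 48123 listed fragments of the chromosome. The contacts were measured by next-generation Capture-C in 3 samples of 1 group, erythroid cells cultured from fetal livers of mixed-strain mice and lacking both copies of HS2 and of HS3, DNase-hypersensitive enhancer elements of the beta-globin LCR. Per the labels' protocols, livers were taken at E12.5, and the cells were expanded for 6 days and selected for CD117. The protocol then describes a differentiation step with a harvest after 24 h, and the samples are labelled late erythroid. All samples share the deletion, so every comparison below is between positions within the same profiles; wild-type profiles were not analysed here.

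In a chromosome conformation capture assay, crosslinked chromatin is cut and religated, and pieces of DNA that lie close together in the nucleus are joined more often. Reads that join a fragment to the viewpoint therefore count its contacts, which usually become rarer with distance along the chromosome. The LCR is the enhancer cluster that drives globin transcription in red cell precursors, and the adult and embryonic globin genes lie beside it within a long array of olfactory receptor genes, which are expressed in sensory neurons. In the gene order of GRCm38, 77 protein-coding genes lie between the adult globin gene Hbb-bt and Rrm1, which encodes the large subunit of ribonucleotide reductase, and 73 of them are olfactory receptor genes. Rrm1 is followed by Stim1, a calcium sensor of the endoplasmic reticulum, by Rhog, a small GTPase, by Pgap2, which acts in the maturation of GPI anchors, and by Nup98, a nuclear pore protein. This gene table is of another build than the counts, so it gives the order of genes and no gene was assigned to a fragment or window.

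The 3 count columns held 49433, 49247 and 37382 reads on chromosome 7. The header does not say which column is which replicate, so they are named by their order in the table, the third being the shallowest, and the labels do not say that each came from a separate liver, so their spread may be partly technical. The position of the viewpoint is not given in the labels. It was taken as 110976215, the centre of the unlisted stretch beside the fragment with the most reads, and another such stretch lay 13.9 kb away. The deposited counts are named as combined for Hbb, and whether several viewpoints were joined is not stated. For a fragment without reads the upper limit, set by 3 reads of the total, was 0.00607%, 0.00609% and 0.00803% of cis reads, a limit that covers counting error only, since reads amplified by PCR are not independent molecules.

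The stretch took up 6.52% ± 0.14 of all cis reads, the reads on the chromosome of the viewpoint (SD, n = 3). It held 3192, 3287 and 2401 reads in the columns. These were shares of 6.46% (95% exact binomial interval 6.24 to 6.68), 6.67% (6.46 to 6.90) and 6.42% (6.18 to 6.68). These intervals cover counting error of independent reads only and are too narrow where reads are copies of one molecule. Of the sequence, 884 kb or 88.4% was in listed fragments. Contact density, in reads per listed kb scaled to 100000 cis reads in that column, was 7.30, 7.55 and 7.26, with a mean of 7.37 ± 0.15 (SD, n = 3). This unit is used for all densities below. Fragments that are not listed were left out of it.

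Density did not fall steadily across the stretch. A line through the 10 steps of 100 kb, on log scales of density and distance, had a slope of -0.05 ± 0.03 (SD, n = 3), and its sign changed with the denominator. With all sequence in the denominator, listed or not, the slope was 0.026. With the other unlisted stretch as viewpoint it was 0.45, but in steps that did not match the stretch, so that value is no comparison. From the inner end outward, the means of the steps ran from 4.44 ± 0.30 at 1000 to 1100 kb through 6.16 ± 0.60 and 4.90 ± 0.69 to 18.1 ± 1.40 at 1300 to 1400 kb. Beyond this step they were 6.61 ± 0.21, 9.31 ± 0.63, 6.66 ± 1.20, 4.49 ± 0.73, 5.45 ± 0.18 and 5.74 ± 0.49. The 1300 to 1400 kb step, chr7:109576215-109676214, stood apart from the next highest, 9.31. In the columns its densities were 16.5, 19.3 and 18.5. It held 27.0% of the reads of the stretch.

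**Figure D1:**
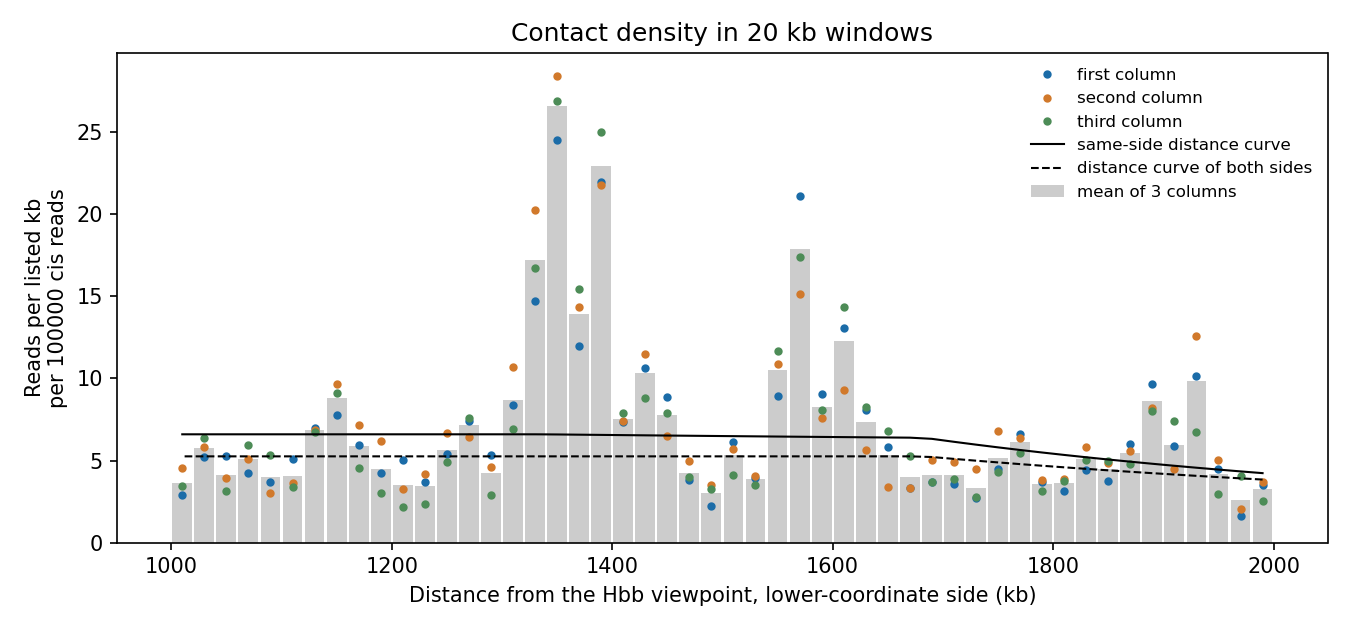
Contact density in the 50 windows of 20 kb, by distance from the viewpoint in kb. Bars give the mean of 3 columns, points the columns, and lines the densities expected at that distance from the same side (solid) or both sides (dashed). The 4 windows from 1320 to 1400 kb and the window at 1560 to 1580 kb, at 13.9 to 26.6, stand above the median of 5.33.

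In 20 kb windows the densities ranged from 2.56 to 26.6, a 10.4-fold range, with a median of 5.33. The median coefficient of variation between columns was 17.2%, and that of the lowest window was 50.1%. All 50 windows had at least 5 listed kb. They held 33 to 734 reads each, with a median of 129. The densest window was chr7:109616215-109636214, 1340 to 1360 kb from the viewpoint, with densities of 24.5, 28.4 and 26.9 in the columns. The next was chr7:109576215-109596214, with 21.98, 21.77 and 25.04. In each column these windows ranked 1 and 2, and they are separated by chr7:109596215-109616214, with 11.98, 14.33 and 15.44. The window on the viewpoint side of the densest, chr7:109636215-109656214, had 14.7, 20.2 and 16.7. The remaining member of the 5 densest lay apart from them, at chr7:109396215-109416214, 1560 to 1580 kb away, with 21.1, 15.2 and 17.4. These 5 windows held 30.1% ± 1.22 of the reads of the stretch (SD, n = 3) in 11.2% of its listed sequence. All 5 were among the 5 densest of the second and the third column, and 4 of them among those of the first.

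At 5 kb resolution the dense 100 kb had a pair of summits. One lay at chr7:109591215-109596214, 1380 to 1385 kb away, with densities of 43.1, 40.9 and 47.5 from 108, 102 and 90 reads. On its far side, chr7:109586215-109591214 had 30.4, 25.7 and 28.6, and on its near side chr7:109596215-109601214 had 18.02, 22.39 and 17.58. The other lay at chr7:109631215-109636214, 1340 to 1345 kb away, with 38.8, 37.4 and 43.5 from 98, 94 and 83 reads. Its neighbour farther from the viewpoint, chr7:109626215-109631214, had 29.0, 47.3 and 30.3, so in the second column that window was the higher one. Between the summits, chr7:109611215-109616214 had a mean of 8.67 ± 3.04 (SD, n = 3). At the inner edge of the dense stretch the density was 18.1 ± 1.39 at chr7:109661215-109666214 and 4.05 ± 1.20 in the next 5 kb towards the viewpoint. The smaller dense stretch also had separate high windows, with 24.8 ± 6.22 at chr7:109396215-109401214 and 22.3 ± 3.94 at chr7:109411215-109416214, and 8.15 ± 2.81 at chr7:109406215-109411214 between them. In that stretch the columns were less alike, and the outer of these windows had 31.5, 23.9 and 19.1.

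**Figure D2:**
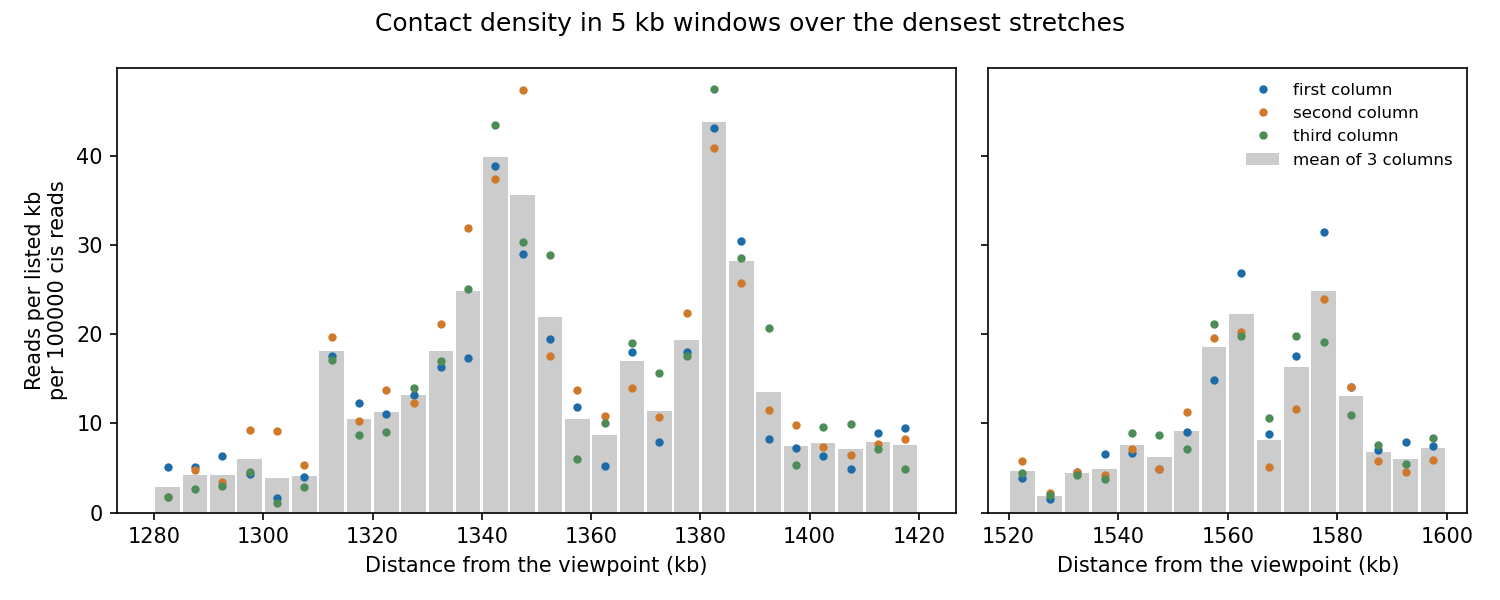
Contact density in 5 kb windows over the dense stretches of adjoining windows and 20 kb on each side, by distance from the viewpoint in kb. Bars give the mean of 3 columns and points the columns; the left panel shows summits of 43.8 and 39.9, the right panel of 24.8 and 22.3.

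The 5 fragments with the most reads all lay in the summit 1380 to 1390 kb away. The fragment chr7:109591586-109592216 (631 bp) had 24, 20 and 9 reads. The others were chr7:109590549-109591043 (495 bp) with 22, 15 and 10, chr7:109591260-109591585 (326 bp) with 17, 15 and 12, and chr7:109589725-109590548 (824 bp) with 12, 14 and 14. The last, chr7:109592907-109593272 (366 bp), had 11, 9 and 15 reads. The columns do not order these fragments alike, and each of them had at least 9 reads in every column. The fragment with the most reads held 53 of the 300 reads in its 5 kb window, which has 11 listed fragments. Of the 40 fragments with at least 20 reads in all, 33 lay in the 5 densest windows, which hold 264 of the 2065 fragments and were chosen for their reads per kb.

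To set each window against its distance, its counts were compared with a distance curve, a monotone fit of density per listed kb between 150 kb and 10 Mb from the viewpoint. Windows were tested with edgeR's quasi-likelihood test over all 687 windows in that range, and a window is called where the Benjamini-Hochberg adjusted p is under 0.05. The test measures departure from the curve against the spread of the 3 columns and does not include the error of the curve, which was fitted to the same counts. Against a curve through the same side alone, 12 of the 50 windows were called higher, where 8.88% of all windows tested were. Called lower were 16 of the 50, where 6.55% of all were. The dense windows of the stretch are part of this curve, which reached 6.60 in it, above the median window density of 5.33. The lower calls are relative to that level. Windows of the stretch had a median of 129 reads against 36 over all windows tested, so the test could call smaller departures in them. Against a curve through both sides, 19 of the 50 were called higher and 3 lower, where 10.5% and 8.88% of all windows were. All 12 windows called higher by the first curve were among the 19.

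The densest window had 4.04 ± 0.30 times the density of the same-side curve (SD, n = 3; log2 ratio 2.01; edgeR adjusted p = 1.65e-19). Its partner at chr7:109576215-109596214 had 3.49 ± 0.28 times (edgeR adjusted p = 8.56e-18), and the windows between and beside them had 2.12 ± 0.27 and 2.61 ± 0.42 times. The window at chr7:109396215-109416214 had 2.78 ± 0.47 times (edgeR adjusted p = 1.07e-13). The calls varied with the column left out and with the tool. Without the first, the second or the third column 10, 8 and 2 windows were called higher and 8, 1 and 0 lower. Over all windows tested the calls became fewer too, at 7.13%, 4.95% and 0.58% higher and 2.62%, 0.58% and 0% lower. The calls left without the third column were the densest window and its partner, with edgeR adjusted p of 0.0496 and 0.0493. At 0 lower calls 12 windows still had an unadjusted p under 0.05 below the curve. limma on log2 ratios called the same pair higher, with limma adjusted p of 0.027 and 0.031. It called 0 windows lower (15 had an unadjusted p under 0.05 below the curve), while DESeq2 called 11 higher and 13 lower. Of all windows tested, limma called 0.73% higher and 0.44% lower, and DESeq2 8.59% and 3.78%. Under a power law in place of the monotone curve 21 windows were higher and 0 lower by edgeR, with 2 lower at an unadjusted p under 0.05.

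With the same-side curve, many of the called windows adjoined each other. A run of 5 windows called higher made up the 1300 to 1400 kb stretch, whose density was 3.14 ± 0.38 times that of the 100 kb on each side (SD, n = 3). A pair called higher covered chr7:109396215-109436214, with densities of 15.1, 13.0 and 14.6, which was 1.91 ± 0.04 times that of the 40 kb on each side. Single windows called higher lay at 1140 to 1160 kb (8.84 ± 0.98), 1420 to 1440 kb (10.3 ± 1.37), 1600 to 1620 kb (12.3 ± 2.63), 1880 to 1900 kb (8.63 ± 0.91) and 1920 to 1940 kb (9.84 ± 2.95). At the last of these the columns were spread widely, at 10.2, 12.6 and 6.73. The longest run called lower covered 4 windows, chr7:109236215-109316214, with 3.34, 4.44 and 3.93. The other 4 runs called lower were pairs of windows, with means of 3.46 to 4.03: chr7:109156215-109196214, chr7:109476215-109516214, chr7:109736215-109776214 and chr7:109856215-109896214. The extent of these runs depended on the curve. With the curve of both sides, 8 adjoining windows from 1300 to 1460 kb and 5 from 1540 to 1640 kb were called higher, and the 3 windows called lower did not adjoin each other.

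The 5 windows of lowest density lay in several places. The lowest, chr7:108996215-109016214, had 1.63, 2.04 and 4.03 from 8, 10 and 15 reads, and it was not called (0.59 ± 0.30 times the same-side curve, edgeR adjusted p = 0.11). Next came chr7:109476215-109496214, between the dense stretches, with 2.23, 3.53 and 3.24, which was 0.46 ± 0.10 times the curve (edgeR adjusted p = 4.59e-05). The outermost window, chr7:108976215-108996214, had 3.50, 3.69 and 2.55 and was not called (edgeR adjusted p = 0.34). The windows chr7:109236215-109256214 and chr7:109736215-109756214 had means of 3.32 ± 0.99 and 3.43 ± 0.95 (SD, n = 3) and were called lower. Without the third column all 3 of these called windows lost the call, and without the second column only that of chr7:109476215-109496214 was kept. Without the first column chr7:109236215-109256214 lost it (edgeR adjusted p = 0.11).

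Density was lower near the outer end. The outer 60 kb, chr7:108976215-109036214, had densities of 3.32, 3.69 and 3.14, and the next 60 kb towards the viewpoint had 8.53, 8.35 and 7.38. This division was not among the planned comparisons. No 20 kb window of the outer stretch was called lower with either curve (edgeR adjusted p from 0.11 to 0.85). Of the outer stretch 56.8% was listed, against 96.1% of the next. The low level went on past the end, with 2.39 ± 0.15 in the first 100 kb beyond 2 Mb (SD, n = 3).

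The LCR side at the same distances was the equal-distance comparison. There the density was 3.49, 3.72 and 3.71 in the columns, from 1339 fragments and 3178 reads. The stretch described here was 2.09-fold, 2.03-fold and 1.96-fold higher (log2 ratio 1.02 ± 0.05, SD, n = 3). By an exact permutation of signs over the columns, two-sided, p was 0.25. No lower p can be reached with 3 columns, and the ratios to the nearer and farther ranges below had the same p. Of the LCR side 64.3% was listed, against 88.4% here. Counted per kb of all sequence the ratio was 2.79-fold and per listed fragment 1.81-fold. The size of the difference thus changed with the denominator, and its direction was the same in each of these. Without the 5 densest windows of this stretch, a choice made after seeing the data, the ratio was 1.60-fold. The LCR side kept all its windows, so a fall was fixed by the choice.

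In 9 of the 10 steps of 100 kb the density exceeded that at the same distance on the LCR side in every column, where 35.7% of the 98 steps from 200 kb to 10 Mb did so. The ratio was 7.11 ± 0.48 at 1300 to 1400 kb (SD, n = 3), with 6.72, 6.96 and 7.64 in the columns. In the other 8 of these steps the mean ratio was between 1.23 and 2.88. The step from 1900 to 2000 kb was the exception, with 5.74 ± 0.49 here and 6.71 ± 0.37 on the LCR side, a ratio of 0.86 ± 0.11 that was below 1 in each column. On the LCR side itself the 10 steps ran from 2.31 to 6.71, and no step there reached the 18.1 of the densest step here.

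**Figure D3:**
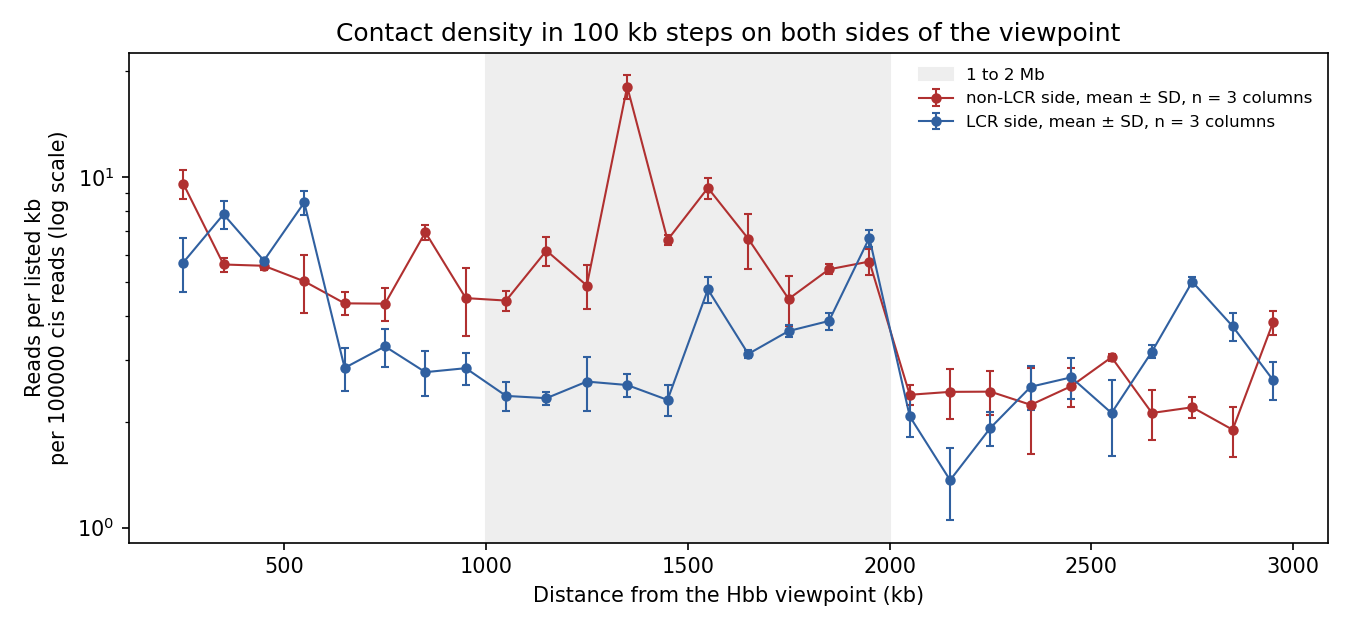
Contact density (log scale) in steps of 100 kb from 200 to 3000 kb on both sides of the viewpoint, as mean ± SD of 3 columns; the 1 to 2 Mb range is shaded. Within it the non-LCR side is the higher one in 9 of 10 steps, with 18.1 against 2.55 at 1300 to 1400 kb.

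On its own side, the stretch was denser than the nearer sequence between 150 kb and 1 Mb, although contacts usually become rarer with distance. That nearer range held 5.76, 6.56 and 6.28 in the columns, a mean of 6.20 ± 0.41 (SD, n = 3). The ratio was 1.27-fold, 1.15-fold and 1.16-fold (log2 ratio 0.25 ± 0.08). Without its 5 densest windows the stretch had a density of 5.80 and the log2 ratio was -0.094, with columns from -0.16 to 0.017. These windows were chosen for their density and left out of the stretch only, so the ratio was bound to fall. What the difference rests on was not tested. The 8 nearer steps from 200 kb to 1 Mb ranged from 4.35 to 9.58, and the 1300 to 1400 kb step was the only one of the 10 above all of them in every column. The listed share was 83.7% in the nearer range and 88.4% in the stretch. Counted per kb of all sequence the ratio was 1.26-fold, and per listed fragment it was smaller, at 1.10-fold.

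Farther out on the same side the density was lower. Between 2 and 10 Mb it was 2.33, 2.54 and 2.45, so that the stretch was 3.13-fold, 2.98-fold and 2.96-fold higher (log2 ratio 1.60 ± 0.04, SD, n = 3). Only 40.7% of that range was listed. Counted per kb of all sequence the ratio was 6.57-fold, and per listed fragment it was 2.48-fold.

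The fragments themselves were small and thinly covered. Their median length was 321 bp (17 to 2747 bp), against 371 bp at the same distance on the LCR side, and they lay at 2.07 per kb against 1.34. With all columns summed, 129 of the 2065 fragments (6.25%) had 0 reads, 760 had 1 or 2, 987 had 3 to 9 and 189 had 10 or more. Reads in all 3 columns were found in 437 fragments, 21.2%, against 7.02% on the LCR side and 22.9% in the nearer range. The 206 fragments with the most reads, 10% of the stretch, held 35.8% of its reads. Single fragments of this depth cannot be ranked against each other, and the windows above carry the comparisons.

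Longer fragments had more reads each and fewer per kb. In the shortest of 4 length classes of nearly equal size, up to 172 bp, there were 1.84 ± 0.23 reads per fragment per 100000 cis reads (SD, n = 3), and in the class over 582 bp there were 4.11 ± 0.27, a fold of 2.27 ± 0.46. Per kb the shortest class exceeded the longest 4.31 ± 0.81 times. Fragment length differs between windows, with 2.67 fragments per listed kb in the 5 densest windows and 2.29 in the others, so the windows were also compared per fragment. When each fragment was given the mean count of its length class, the 5 densest windows held 2.42 ± 0.08 times the reads expected from their fragments and the other 45 windows 0.80 ± 0.01 times. The 1300 to 1400 kb stretch held 2.26 ± 0.15 times and the smaller dense stretch 1.71 ± 0.15 times. These windows and stretches were chosen or called for high density, and the class means came from the same fragments. High values in them, and a low value in the other windows, were favoured by that choice. In each of the 4 length classes the reads per fragment were higher here than on the LCR side, by 1.44 ± 0.21 times in the shortest, 1.78 ± 0.28 and 1.96 ± 0.16 in the middle ones and 2.03 ± 0.15 times in the longest.

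**Figure D4:**
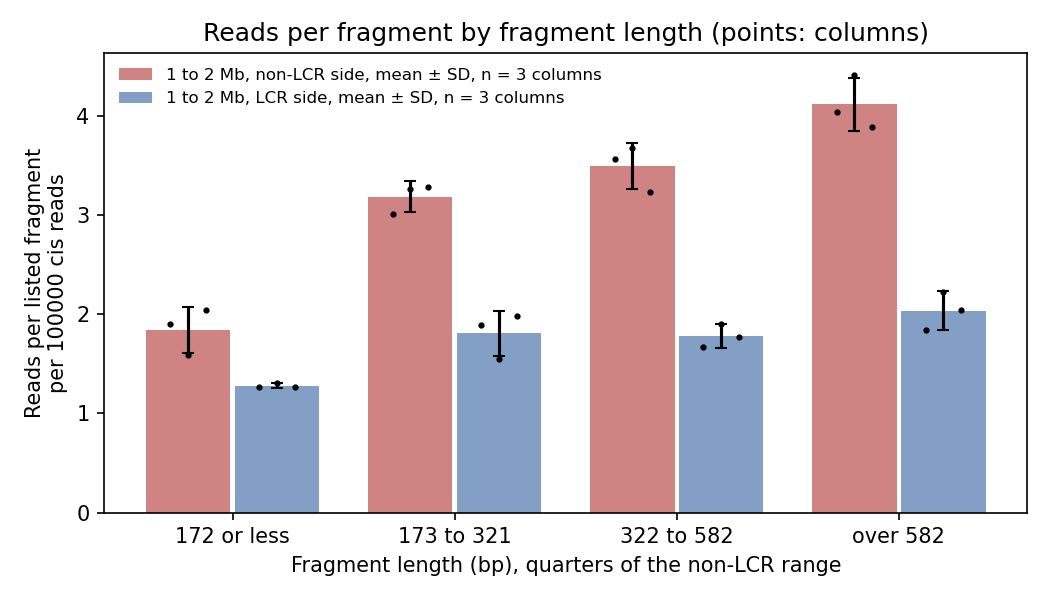
Reads per listed fragment per 100000 cis reads in classes of fragment length, at 1 to 2 Mb on the non-LCR side (red) and the LCR side (blue). Bars give mean ± SD of 3 columns and points the columns; in each class the non-LCR side is higher, at 1.84 against 1.28 in the shortest and 4.11 against 2.04 in the longest.

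The stretches without reads were short. The 129 empty fragments fell into 119 runs, of which 10 had more than 1 fragment. The longest by listed length was the single fragment chr7:109187196-109189668 (2473 bp), followed by chr7:109443219-109444709 (1491 bp) and chr7:109095255-109096665 (1411 bp), each also 1 fragment. All 3 belong to the longest class of fragments, which had a mean of 5.63 reads per fragment summed over the columns and of which 4.08% had 0 reads. By their listed length, the same-side curve predicted 18.5, 13.1 and 9.34 reads for them. That prediction is per kb, and longer fragments had fewer reads per kb. Unlisted sequence was scattered over 420 stretches, of which 10 were at least 1.5 kb long. The longest were chr7:109942965-109946737 (3773 bp), chr7:109946956-109950646 (3691 bp) and chr7:109771132-109774616 (3485 bp), and the first 2 lie next to each other at the inner end, separated by less than 1 fragment of median length.

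The columns ranked the windows alike. Over the 50 windows, which share libraries and neighbouring sequence and are not independent, Spearman's rho between columns was 0.85 for the first and the second, 0.81 for the first and the third and 0.75 for the second and the third. For the same pairs, chi-square divided by its degrees of freedom was 1.84, 1.53 and 2.27, where independent reads would give about 1. Density went with the listed length of a window (rho 0.62) and with its number of fragments per listed kb (rho 0.56); these are descriptions of the 50 windows, and the part of listing in the densities was not tested.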

How the data were processed

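The table deposited by the authors holds whole-number read counts for each listed DpnII fragment of chromosome 7, in 3 columns of 1 group. Trim Galore, Bowtie2 and the build mm9 are named, without versions, in the submitters' processing notes; per the labels' protocols, 3C libraries were made with DpnII, and the labels name a double capture. Which fragments were listed, and how the authors counted and filtered reads, is not stated in the labels or the file. Fragments were assigned by midpoint. Densities are reads per listed kb per 100000 cis reads. Distance curves were isotonic regressions (scikit-learn 1.9.0) through 10 bins per decade. Windows of 20 kb with at least 5 listed kb were tested with edgeR 4.0.16, as the quasi-likelihood F test of the intercept with expected counts as offset, written out because the packaged function refuses a design of 1 column. It was tested on simulated data. Alternatives used DESeq2 1.42.0 and limma 3.58.1. Density ratios were tested with the exact sign-flip permutation test. Named were the 5 densest and 5 least dense windows, the 5 fragments with the most reads, and the 3 longest runs without reads and unlisted stretches; other windows are named by their calls, and the 100 kb steps, 5 kb windows and length classes were added after seeing the data. Members, tests and lists were chosen with earlier results of these data known.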

Additional observations from a re-analysis of the deposited data

How the results depend on the processing

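No paired analysis was possible because there is 1 group and the columns carry no replicate number. Leaving out 1 column kept the direction of every value given here: the share was 6.44% to 6.57%, the density 7.28 to 7.43, the log2 ratios 1.00 to 1.04 (LCR side), 0.21 to 0.28 (nearer) and 1.57 to 1.61 (farther) and the slope -0.06 to -0.04. Windows called with the same-side curve then were 2 to 10 higher and 0 to 8 lower, and with the curve of both sides 2 to 14 higher and 0 lower (5 had an unadjusted p under 0.05 in each case). With the curve of both sides, 0.44% to 7.57% of all windows tested were then higher and 0% to 4.08% lower. Totals of reads beyond 5 kb and beyond 150 kb gave shares of 7.32% and 10.7% and densities of 8.28 and 12.05. Density was 6.52 per kb of all sequence, 3.16 per fragment and 7.56 without fragments under 100 bp. Capping the highest fragment counts gave a share of 6.21% and a density of 7.02. Without the 5 densest windows, left out of the stretch only and added after seeing the data, the share was 4.56% and the density 5.80. The log2 ratio to the nearer range then reversed to -0.094, where a fall was fixed by the choice. The slope within the stretch reversed to 0.026 per kb of all sequence and 0.17 per fragment, and was -0.17 in 50 kb bins. It was 0.45 with the other unlisted stretch as viewpoint, in steps that did not match the stretch, so that value is no comparison. With the curve of both sides, limma called 4 higher and 0 lower (1 at an unadjusted p under 0.05), where 1.16% and 0.73% of all windows were. The power law called 0 lower (1 at an unadjusted p under 0.05), where 5.68% of all were. Capped counts, DESeq2 and no minimum of listed length called 1 lower each, where 7.28%, 5.24% and 3.76% of all were. Windows of 50 kb gave 8 of 20 higher and 2 lower (11.6% and 17.3% of all such windows). Windows of 10 kb gave 29 of 98 higher and 4 lower (13.5% and 7.66%). With the same-side curve, limma called 2 higher and 0 lower (0.73% and 0.44% of all windows) and the power law 21 of 50 higher and 0 lower (12.52% and 3.49%). There, 50 kb windows gave 7 of 20 higher and 9 lower (10.6% and 13.4%), and 10 kb windows 21 of 98 higher and 23 lower (12.7% and 6.24%). Where a call or sign changed, the cause was not tested. Depth limits single fragments, with a median of 3 reads over the columns.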
